A study of Mus with 2 samples.

Results

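Hes1, Hes5, Hey1, Hey2, Heyl and Nrarp are 6 genes switched on by Notch signalling in many tissues, and they were chosen by symbol from the 28693 features of the count tables. All 6 were found, and all 6 passed the filter on low counts. They were measured by single-cell RNA-seq of P0 kidney (postnatal day 0) in 2 mouse libraries, both of genotype Rbpj c/- ; Foxd1cre/+. In this genotype Cre is made where Foxd1, a gene of the renal interstitium, is active, and the conditional Rbpj allele is its target. All cells compared here therefore started with 1 conditional and 1 minus allele, and which of them had lost the conditional allele was not measured. The series also holds 2 control libraries (Rbpj c/+ ; Foxd1cre/+), which were not analysed here, so every comparison is between cell classes within mutant kidneys. The labels do not say whether a library came from 1 animal or from several. With n = 2, each p-value of the main fit rests only on how classes vary between these libraries. That spread is pooled over all classes, after the difference the libraries share is taken out.

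When a Notch receptor meets a ligand of the Jagged or Delta-like families on a neighbouring cell, it is cut and its intracellular part enters the nucleus. There it joins the DNA-binding protein Rbpj and turns on target genes. Hes and Hey genes encode basic helix-loop-helix repressors of transcription, and Nrarp encodes a small ankyrin-repeat protein that limits the Notch complex. In the kidney, Notch signals act when the renal vesicle, the first epithelial stage of the nephron, is divided into podocyte, proximal and distal parts. Notch also acts in arteries and in the mural cells around vessels.

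Hes1 (ENSMUSG00000022528) lies on chromosome 16 from 30065357 to 30067796 in GRCm38. Hes5 (ENSMUSG00000048001) lies on chromosome 4 from 154960626 to 154962372, and Heyl (ENSMUSG00000032744) lies on the same chromosome from 123233556 to 123249870. Hey1 (ENSMUSG00000040289) lies on chromosome 3 from 8663359 to 8667038. Hey2 (ENSMUSG00000019789) lies on chromosome 10 from 30832359 to 30842783, and Nrarp (ENSMUSG00000078202) lies on chromosome 2 from 25180758 to 25183339. RefSeq annotates all 6 as protein-coding. The counts come from the 3' ends of whole transcripts and do not resolve exons.

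After filtering, 5910 cells of library 1 and 4937 of library 2 were kept, with median depths of 11716.5 and 12196 unique molecular identifiers (UMIs). They shared 6 cell barcodes before doublet removal. Cell classes were built from clusters without the 6 genes, and "-like" marks a name given from marker genes. Of the 20 classes tested, 10 had every marker of their list in at least 10% of their cells, and Olfm3 was at 0% in the cells named immature podocyte-like. Of the 45 clusters in named classes, 7 had more markers of another class than of their own among their 10 leading genes, haemoglobin genes not counted. Of these 7, 3 were each the whole of a class, which is called by its first leading gene: Thrsp-led endothelial cells matched the plexus list best, Tmem52b-led tubule cells the distal tubule list and Wnt4-led stroma cells the medullary stroma list. Values without the 7 clusters, a setting added after the data were seen, are given where they change a call. Levels are given in CPM, the UMIs of a gene per 1000000 UMIs of the class in a library. Barcodes with under 100 UMIs, which hold mostly free RNA, gave the background. It was 118 and 106 CPM for Hes1, 9.95 and 10.5 CPM for Hes5, 14.2 and 21.3 CPM for Hey1, 3.98 and 2.77 CPM for Hey2, 11.1 and 13.3 CPM for Heyl, and 16.5 and 16.9 CPM for Nrarp. Taking the 95% Poisson intervals of class and background as apart in both libraries, 8 of 20 classes stood above this background for Hes1, 7 for Nrarp, 4 for Hey1, 3 each for Hes5 and Heyl, and 1 for Hey2. This background is the make-up of free RNA itself, and the part of a cell's UMIs that comes from free RNA was not measured. A class at or under it may therefore still express the gene. Poisson and binomial intervals cover counting error only, and those of log2 fold changes come from the SE of the fit.

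Hes1 was the most abundant of the 6 over all cells. Its level over all cells was 153 ± 8.56 CPM (SD over 2 libraries, as for all later ± values of CPM and percent) and it had a UMI in 54.3% and 54.5% of cells. Thrsp-led endothelial cells had 297 CPM in library 1 and 306 CPM in library 2. Distal precursor-like cells, the early nephron cells marked by Irx1 and Sim2, had 319 and 280 CPM. These classes overlapped, as did the next 4 classes in the order, which were arterial endothelial-like, Tmem52b-led tubule, collecting duct-like and glomerular endothelial-like cells. Proximal tubule-like cells had 20.8 and 21.0 CPM, and erythroid-like cells 5.0 and 5.3 CPM. Hes1 thus differed between distal precursor-like and proximal tubule-like cells of the same libraries by far more than the libraries differed from each other.

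Hes5 UMIs came mainly from the early nephron. Hes5 stood at 12.1 ± 0.093 CPM over all cells, and renal vesicle stage-like cells held 47.4% of its UMIs, distal precursor-like cells 32.6% and proximal precursor-like cells 14.7%. The levels were 80.2 and 78.9 CPM at the renal vesicle stage, 51.9 and 46.2 CPM in distal precursor-like cells and 17.3 and 24.6 CPM in proximal precursor-like cells. Each of these stood above the next in both libraries. Nephron progenitor-like cells had 0.3 and 0.4 CPM, under the background of free RNA.

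Hey1 was highest in immature podocyte-like cells, at 121 and 114 CPM, and next at the renal vesicle stage, at 107 and 92.3 CPM. The mean of immature podocyte-like cells was 87.2 CPM at a minimum of 5000 UMIs, 59.9 CPM at a mitochondrial limit of 5% and 65.2 CPM without doublet removal, each under the renal vesicle stage in both libraries. With cells gated one by one and without the 7 clusters the 2 classes overlapped. Glomerular endothelial-like cells had 61.3 and 95 CPM and arterial endothelial-like cells 48.3 and 66.2 CPM, and these ranges overlapped. Nephron progenitor-like, proximal precursor-like and distal precursor-like cells lay together between 18.2 and 22.7 CPM. Hey2, the close relative of Hey1, was the rarest of the 6, with 334 and 257 UMIs over all cells. It reached 13.6 and 12.8 CPM in arterial endothelial-like cells, from 24 and 12 UMIs, with a mean of 29.4 CPM without doublet removal and 21.9 CPM at the finer clustering. Glomerular endothelial-like cells had 9.8 and 12.2 CPM, from 13 and 5 UMIs. Immature podocyte-like, renal vesicle stage-like and mature podocyte-like cells followed between 5.1 and 6.9 CPM.

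Among the 20 tested classes Heyl was highest at the renal vesicle stage, at 56.4 and 40.6 CPM. Immature podocyte-like cells had 31.2 and 28.0 CPM, proximal precursor-like cells 26.8 and 27.1 CPM, and nephron progenitor-like cells 17 and 16.1 CPM. Arterial endothelial-like cells, high in Hey1 and Hey2, had 1 Heyl UMI in all. Nrarp was highest in glomerular endothelial-like cells, at 101 and 117 CPM, then at the renal vesicle stage, at 73.0 and 72.9 CPM, and in proximal precursor-like cells, at 57.8 and 60.6 CPM. Each of these 3 classes stood above the next in both libraries. With cells gated one by one, which left 15 and 3 glomerular endothelial-like cells, their mean was 53.6 CPM, under the 75.6 and 76.7 CPM of the renal vesicle stage. Cortical stroma-like cells had 0.3 and 0.4 CPM of Nrarp. Between neighbours in the order of class means, the libraries separated 7 of 19 pairs for Hes1, Hey1 and Nrarp, 5 for Heyl and 4 for Hes5 and Hey2. Over all tested genes 22.9% of such pairs were separated, with a median of 4 pairs a gene, so these counts single out none of the 6.

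**Figure D1:**
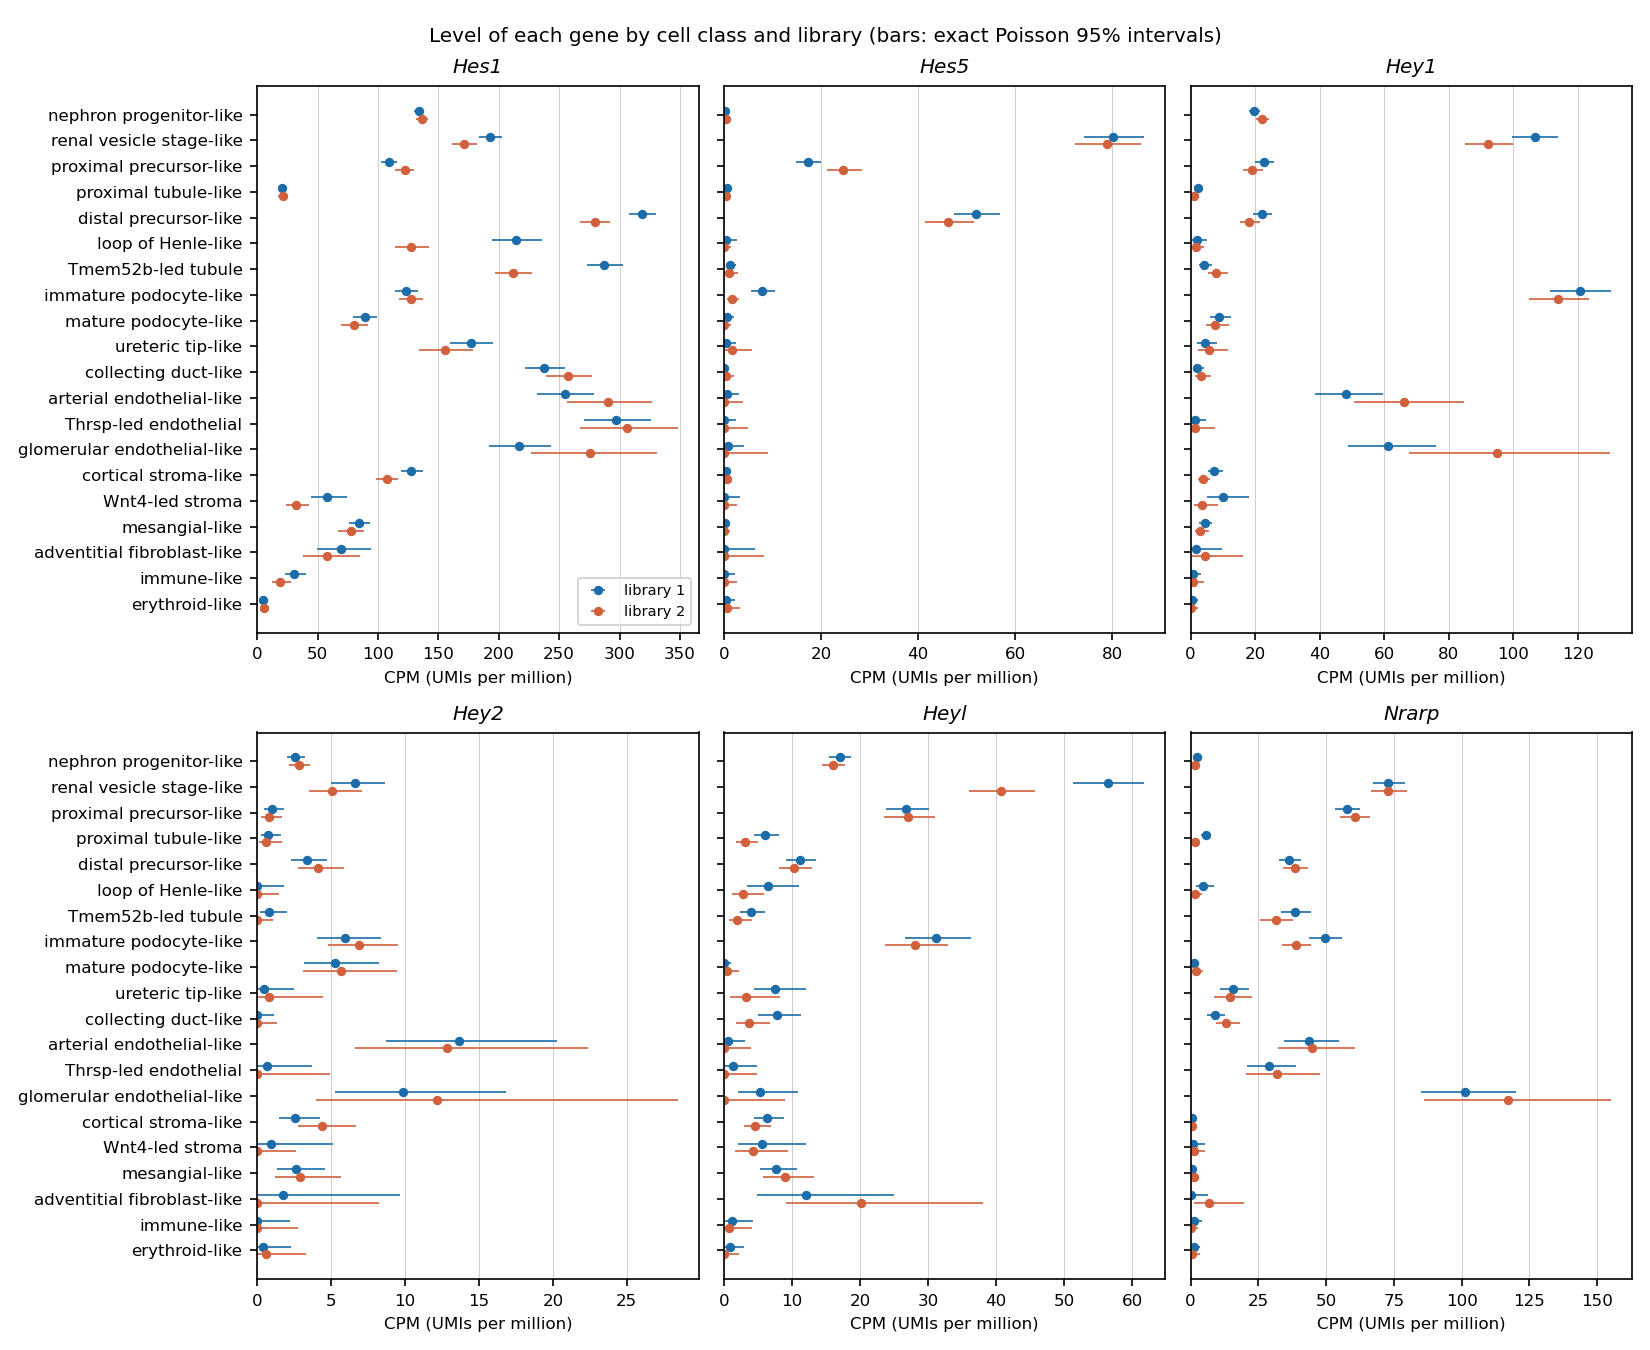
Level of each gene in CPM (horizontal axis) in 20 cell classes (vertical axis). Points are single libraries, blue for library 1 and orange for library 2, and bars are exact Poisson 95% intervals; Hes5 reached 80.2 and 78.9 CPM at the renal vesicle stage, and Hes1 ranged from 5.0 CPM in erythroid-like to 319 CPM in distal precursor-like cells.

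Each class was set against the mean of the other 19 in 1 fit of edgeR's quasi-likelihood test over all genes. Of 120 pairs of gene and class, 46 were higher and 24 lower at an adjusted p under 0.05, where 26.6% of all such pairs over all genes were higher and 15.4% lower. The lower calls fell to 7 of 126 pairs, beside 46 higher, when the 40 smooth muscle-like cells were added as a class (25.6% higher and 13.4% lower over all genes). They fell to 8 of 114, beside 40 higher, with cells gated one by one (23.3% and 13.6%), and to 8 of 78, beside 25 higher, at a mitochondrial limit of 5% (23.7% and 13.9%). Of the 70 calls 9, all of them higher, were of classes whose CPM lay under the mean CPM of the other 19, and 61 had the same direction in CPM. At the renal vesicle stage all 6 genes were higher, where 35.7% of all genes tested were called higher. Distal precursor-like cells also had 6 of 6 higher, against 33.0% of all genes, although their Hey1 stood at 20.1 CPM where the other classes averaged 23.2 CPM. Immature podocyte-like cells had 5 of 6 higher, against 27.3% of all genes, and of these Hes5, at 4.68 CPM, lay under the 8.16 CPM of the others. Only 1 was called at a minimum of 5000 UMIs, where 38.9% of all genes were called, 1 at a mitochondrial limit of 5% (44.9%), 1 without the 7 clusters (40.5%), and 2 both without doublet removal (42.7%) and with gated cells (21.5%). In immune-like cells 4 of 6 were lower, against 21.0% of all genes, with 1 called both with gated cells (47.1% of all genes) and with a minimum of 15 cells per class (45.7%) and 2 without doublet removal (47.9%). In erythroid-like cells edgeR called 0 of 6 in either direction, with 11.3% of all genes called and 2 of the 6 at an unadjusted p under 0.05; DESeq2 called 1. Cells gated one by one gave an erythroid-like class of 649 and 410 cells with 67.2 and 27.2 CPM of Hes1, and there the fit called Heyl (8.16 and 4.95 CPM) and Nrarp (12.4 and 4.54 CPM) higher, where 22.2% of all genes were called. The mean of the other classes includes classes with no UMI of a gene, whose fitted level rests on the prior count, so no fold is given for these contrasts. Where a class has no UMI of a gene, the mean of the fitted log levels is so low that a lower call can hardly be made. Hes5 had 0 UMIs in Thrsp-led cells and Hey2 had 0 in collecting duct-like cells, and each had 0 lower calls in 20 classes. The added smooth muscle-like cells had 0 UMIs of Hey1, Heyl and Nrarp as well. The counts of lower calls therefore depend on which classes entered the fit.

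The start of nephron formation was read by setting renal vesicle stage-like cells, which express Lhx1 and Wnt4, against nephron progenitor-like cells, which express Six2 and Cited1. All 6 genes were higher at the renal vesicle stage, where 22.8% of the 14635 genes tested were called higher and 41.4% were called in either direction. Hes5 rose from 0.3 and 0.4 CPM to 80.2 and 78.9 CPM, a log2 fold change of 7.78 ± 0.26 (SE) with an adjusted p of 7.4e-23 by edgeR's quasi-likelihood test. Nrarp rose from 2.2 and 1.8 CPM to 73.0 and 72.9 CPM, a log2 fold change of 5.10 ± 0.17. The libraries of the 2 classes did not overlap for either gene.

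Hey1 rose from 19.8 and 22.3 CPM to 107 and 92.3 CPM, a log2 fold change of 2.19 ± 0.13. Heyl rose by 1.5 ± 0.13 and Hey2 by 1.07 ± 0.27 on the same scale, and the adjusted p values of these 5 genes ranged up to 0.0016 by edgeR's quasi-likelihood test. Hes1 rose least, from 134 and 137 CPM to 193 and 171 CPM, a log2 fold change of 0.37 ± 0.13 with an adjusted p of 0.017 by the same edgeR test. The call of Hes1 was lost without the library block (adjusted p 0.077 by edgeR), by DESeq2 (0.091), at a minimum of 5000 UMIs per cell, at a mitochondrial limit of 5% and with cells gated one by one. That of Hey2 was lost without doublet removal, at 0.13 on the log2 scale, and at a finer clustering, at 0.22. Without the 7 clusters 4 of 6 genes were called, where 43.0% of all genes were. Hes1 then stood at 0.22 (adjusted p 0.14 by edgeR) and Hey2 at 0.48 (0.23).

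Of 54 further genes of the Notch pathway, 49 were tested, and 24 were called here, 13 higher and 11 lower, which is 49.0% against 41.4% of all genes. Their median log2 fold change was -0.02 and that of all genes was 0.00. The ligand gene Dll1 rose from 1.85 ± 0.50 to 144 ± 2.33 CPM, a log2 fold change of 6.20 ± 0.16. The ligand gene Jag1 rose from 8.83 ± 1.81 to 220 ± 8.83 CPM, a change of 4.59 ± 0.13. Sox9, which encodes a transcription factor reported as a Notch target, rose from 2.73 ± 0.91 to 147 ± 35.0 CPM, a change of 5.69 ± 0.20. Of the 4 receptor genes 1 was higher, and of the 8 genes of the nuclear complex 1 was higher and 4 were lower. The pathway list includes Ccnd1 and Efnb2, which also served as markers for naming classes, so their calls are not independent of the classes.

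The nephron progenitor-like class was not uniform. In its cluster led by Cited1, Crym and Six2, Hes1 stood at 178 and 181 CPM, and in the cluster led by Fam132a, Col9a1 and Bmper, with Wnt4 among its 10 leading genes, at 58.2 and 58.0 CPM. The leading genes of the latter held 2 renal vesicle stage markers, Bmper and Wnt4, and 1 nephron progenitor marker. It was among the 7 clusters led by markers of another class. The Hes1 levels of the 2 clusters did not overlap. Hey2 went the other way, at 1.92 and 1.77 CPM in the first cluster and 5.46 and 5.63 CPM in the second. Heyl had 19.6 and 18.8 CPM in the first and 10.7 and 11.3 CPM in the second. Hey1 had 16.8 and 15.8 CPM in the first and 23.8 and 26.9 CPM in the second. Hes5 stayed under 0.5 CPM in both clusters. The lower Hes1 of the second cluster and the higher level at the renal vesicle stage were not tested against each other.

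Within the renal vesicle stage the 6 genes were distributed unequally over 4 sub-clusters. The sub-cluster led by Hes5 itself, Dkk1 and Cbln4 (71 and 63 cells) had the most Hes5, at 155 and 178 CPM. The sub-cluster led by Tmem100, Chgb and Lsp1 (75 and 49 cells), with the podocyte genes Wt1 and Cldn5 among its leading genes, had 12.6 and 12.3 CPM of Hes5. That sub-cluster had more Hey1, at 144 and 129 CPM against 111 and 97.9 CPM, and more Hey2, at 17.2 and 14.4 CPM against 0.71 and 2.67 CPM. Nrarp was close in both, at 65.3 and 73.8 CPM against 75.7 and 77.4 CPM. The sub-cluster led by Rmst, Fgf8 and Pou3f1 (41 and 62 cells) had the most Hes1 of the 4, at 260 and 206 CPM. Hes5 and Hey2 were therefore highest in different sub-clusters of the same stage in both libraries.

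Proximal and distal precursor-like cells were compared to follow the split of the nephron. Of the 6 genes, 2 were higher in proximal and 3 in distal precursors, where 17.1% and 17.9% of all genes were called in these directions and 35.0% in either. Heyl had 26.8 and 27.1 CPM in proximal and 11.2 and 10.3 CPM in distal precursors, a log2 fold change of 1.34 ± 0.17 with an adjusted p of 4.3e-08 by edgeR's quasi-likelihood test. Nrarp was also higher in proximal precursors, by 0.68 ± 0.14. The libraries did not overlap for either gene.

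Hes1 had 109 and 122 CPM in proximal against 319 and 280 CPM in distal precursors, a log2 fold change of -1.35 ± 0.13 with an adjusted p of 5.0e-11 by the same edgeR test. Hey2 was lower in proximal precursors by -2.01 ± 0.41 on the log2 scale, from 10 and 6 UMIs against 31 and 30. Hes5 was lower by -1.23 ± 0.17, but this value turned to 0.28 at a minimum of 5000 UMIs per cell. It was -0.04 without cells over 50000 UMIs, with an adjusted p of 0.92 by edgeR, its call was lost by DESeq2 (adjusted p 0.059), and 1 distal precursor-like cell of library 1 held 86 of its 481 UMIs. Hey1 did not pass the test, at 0.08 ± 0.17 (95% interval -0.25 to 0.40). It passed toward proximal precursors at 5000 UMIs (1.01), at the finer clustering (0.68) and without cells over 50000 UMIs (0.73).

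Of the pathway genes, 21 of 49 were called between the precursors, 12 higher in proximal and 9 higher in distal cells, or 42.9% against 35.0% of all genes. At a minimum of 5000 UMIs 13 were called, where 24.4% of all genes were. The median log2 fold change of the list was -0.07 and that of all genes -0.02. Sox9 had 11.4 ± 2.15 CPM in proximal and 165 ± 17.2 CPM in distal precursors, a log2 fold change of -3.82 ± 0.19. Efnb2, which encodes an ephrin ligand, had 34.1 ± 0.089 CPM in proximal and 3.16 ± 0.57 CPM in distal precursors. Hes7, a relative of Hes1, had 1 UMI in proximal against 15 in distal precursors.

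Sub-clusters of the precursors spread as widely as the classes. Among distal precursors, the sub-cluster led by Corin, Wnt7b and Pdgfa (51 cells in each library) had the most Hes1 of all sub-clusters measured, at 399 and 425 CPM. The distal sub-cluster led by Sim2, Spon1 and Mest had 81.1 and 69.8 CPM of Hes5, and the one led by Cxcl12, Spon1 and Cldn19 had 3.09 and 1.45 CPM. Among proximal precursors, a sub-cluster of 19 and 23 cells led by Ccne2, Hells and Cbln4, with DNA replication genes such as Cdc6 and Ung, had 121 and 205 CPM of Hes5. Its Nrarp stood at 181 and 140 CPM, above glomerular endothelial-like cells. The proximal sub-cluster led by Igfbp2, Osr2 and Cthrc1 (99 and 72 cells) had only 12.7 and 22.6 CPM of Nrarp and 0.59 and 1.11 CPM of Hes5, while its Heyl stood at 30.1 and 35.9 CPM.

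Toward the proximal tubule, the segment that reabsorbs most of the filtrate, 5 of 6 genes fell, where 18.4% of all genes were lower and 44.0% were called. Nrarp fell from 57.8 and 60.6 CPM in proximal precursors to 5.6 and 1.7 CPM in proximal tubule-like cells, a log2 fold change of -3.74 ± 0.21. Hes5 fell by 4.96 ± 0.42 and Hey1 by 3.39 ± 0.29 on that scale. Heyl fell by 2.35 ± 0.22, and Hes1 fell by 2.30 ± 0.17, from 109 and 122 CPM to 20.8 and 21.0 CPM. The largest adjusted p of the 5 was 1.9e-11 by edgeR's quasi-likelihood test, and the libraries of the classes did not overlap. Hey2 did not pass, at -0.27 ± 0.62, from 10 and 6 UMIs in proximal precursors. At a mitochondrial limit of 5% the Hes1 difference was 0.01. That limit left 12 of the 20 classes.

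The pathway genes called numbered 28 of 49, 11 higher and 17 lower in proximal tubule-like cells, or 57.1% against 44.0% of all genes. Their median log2 fold change was -0.24 and that of all genes 0.01. Lfng, which encodes a glycosyltransferase that modifies Notch receptors, fell from 65.7 ± 1.71 to 4.31 ± 2.01 CPM, and Dll1 fell from 90.1 ± 4.57 to 8.36 ± 2.82 CPM. Among the 12 genes of receptor processing and glycosylation, 7 were higher and 1 was lower. The count fell to 10 at the mitochondrial limit of 5%, where 18.9% of all genes were called, and to 12 with cells gated one by one, where 20% (2891 of 14419) were. Tmem52b-led tubule cells had 287 and 212 CPM of Hes1 and 38.6 and 31.4 CPM of Nrarp. Their 10 leading genes held the distal tubule markers Tmem52b and Calb1 but also the collecting duct markers Aqp2, Aqp3 and Scnn1b, and 4 of 6 distal tubule markers were detected, so they are not compared as a segment. Loop of Henle-like cells had 214 and 127 CPM of Hes1, with libraries that stood far apart, and 4.5 and 1.6 CPM of Nrarp.

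**Figure D2:**
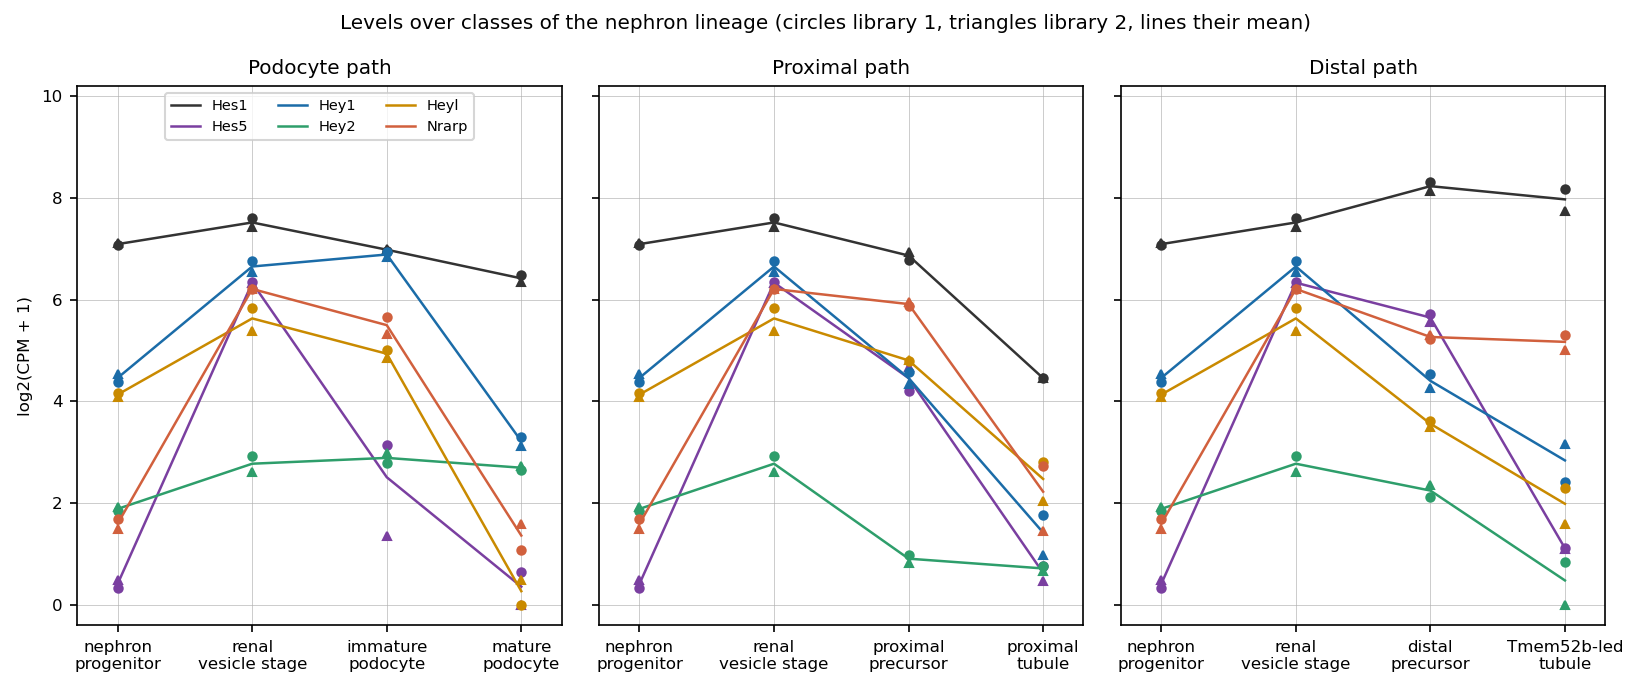
Level of each gene as log2(CPM + 1) over 4 classes in each of 3 orders of classes, toward podocytes, proximal tubule and the Tmem52b-led tubule cells. Circles are library 1, triangles library 2 and lines their mean; Hes5 and Nrarp are near the bottom in nephron progenitor-like cells and high at the renal vesicle stage, and Hes1 is the highest of the 6 in each class, with Hey1 close to it in immature podocyte-like cells.

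Podocytes are the cells whose foot processes form the filtration barrier of the glomerulus. From the renal vesicle stage to immature podocyte-like cells 4 of 6 genes fell and none rose, where 24.0% of all genes were lower and 41.4% were called. The renal vesicle class includes a sub-cluster of 124 cells that shares Wt1, Cldn5, Lsp1, Pmp22 and Pcp4 as leading genes with an immature podocyte-like sub-cluster, so the 2 sides are not fully separate. Hes5 fell from 80.2 and 78.9 CPM to 7.8 and 1.6 CPM, a log2 fold change of -4.24 ± 0.23 with an adjusted p of 1.4e-16 by edgeR's quasi-likelihood test. Its 42 UMIs in library 1 included 17 in 1 cell. Nrarp fell by 0.91 ± 0.14, Heyl by 0.89 ± 0.15 and Hes1 by 0.72 ± 0.14 on the log2 scale, and their libraries did not overlap. Without the 7 clusters, one of them on each side of this comparison, the same 4 genes fell, where 53.4% of all genes were called, and Nrarp fell by 2.84 and Heyl by 2.77.

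Hey1 and Hey2 did not pass the test between these classes. Hey1 had 121 and 114 CPM in immature podocyte-like cells against 107 and 92.3 CPM, a difference of 0.06 ± 0.13 (95% interval -0.19 to 0.30). It was -0.41 at a minimum of 5000 UMIs, -1.07 at a mitochondrial limit of 5% and -0.51 without doublet removal, each with an adjusted p of 0.018 or less by edgeR, and 0.36 at the finer clustering. Hey2 differed by -0.06 ± 0.30 (95% interval -0.65 to 0.52), and by -1.97 and -1.83 at the minimum of 5000 UMIs and the mitochondrial limit of 5%, both past the threshold.

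Immature podocyte-like cells consisted of 2 sub-clusters. The first, with Cldn5, Tagln and Pmp22 among its leading genes (66 and 58 cells), had 146 and 151 CPM of Hey1, 52.5 and 55.0 CPM of Heyl and 83.0 and 75.5 CPM of Nrarp. The second, led by Vcan, Ptn and Frem1 (83 and 85 cells), still had 89.4 and 87.2 CPM of Hey1 but 5.33 and 8.45 CPM of Heyl and 9.03 and 12.2 CPM of Nrarp. Hes5 had 13.9 and 3.26 CPM in the first and 0.41 and 0.34 CPM in the second, and Hey2 8.47 and 13.1 against 2.87 and 2.37 CPM. Hes1 was close in both, at 120 and 131 CPM against 128 and 125 CPM. Another podocyte sub-cluster, without a name and led by Cxx1a, Pcp4 and Cpxm1 (59 and 34 cells), had 40.5 and 45.7 CPM of Hey1. The levels of Heyl and Nrarp in the first sub-cluster were thus several times those in the second in both libraries, while those of Hey1 differed less.

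**Figure D3:**
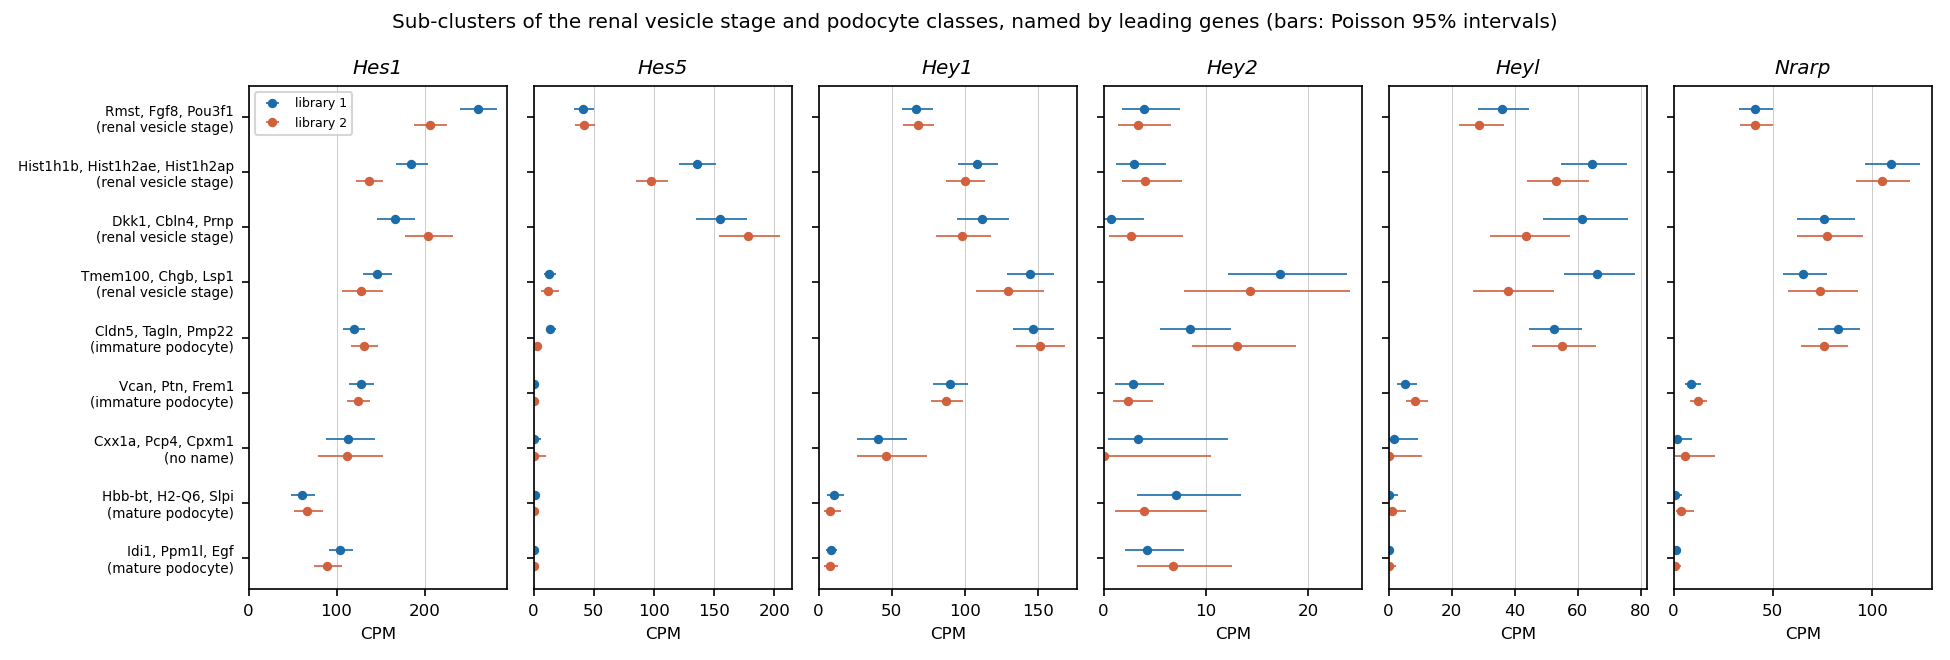
Level in CPM (horizontal axes) of each gene in the 4 sub-clusters of the renal vesicle stage and 5 podocyte sub-clusters, named by leading genes, with the class in brackets. Points are single libraries with exact Poisson 95% intervals; Hes5 is high in the first 3 rows, and Heyl and Nrarp are high down to the row of Cldn5, Tagln and Pmp22 and low in the rows under it.

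In mature podocyte-like cells, marked by Synpo and Cdkn1c, 5 of 6 genes were lower than in immature ones, where 23.8% of all genes were lower and 47.5% were called. Hey1 fell from 121 and 114 CPM to 8.9 and 7.7 CPM, a log2 fold change of -3.70 ± 0.21 with an adjusted p of 2.0e-17 by edgeR's quasi-likelihood test. Nrarp fell from 49.6 and 38.8 CPM to 1.1 and 2.0 CPM, a change of -4.77 ± 0.34. Heyl had 311 UMIs in immature and 1 in mature podocyte-like cells, a ratio of 0.0056 (95% interval 0.00014 to 0.031). Hes5 had 50 against 2 UMIs, a ratio of 0.069 (0.0081 to 0.26), but its difference turned to 0.35 at a minimum of 5000 UMIs and to 0.13 without doublet removal.

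Hes1 fell only from 123 and 127 CPM to 88.9 and 80.0 CPM, a log2 fold change of -0.46 ± 0.15 with an adjusted p of 0.012 by edgeR. With cells gated one by one the log2 fold change turned to 0.041 and did not pass, with an adjusted p of 0.94 by edgeR, and the call was also lost at a mitochondrial limit of 5% and without doublet removal. Hey2 had 5.9 and 6.9 CPM in immature and 5.3 and 5.7 CPM in mature podocyte-like cells, and its difference of -0.12 ± 0.36 did not pass (95% interval -0.82 to 0.58). At a minimum of 5000 UMIs it was 1.64, past the threshold. Without the 7 clusters it was 1.16, with an adjusted p of 0.044 by edgeR, and Hes5 did not pass, at -0.08, where 32.1% of all genes were called. Only 1 of the 6 genes was called at a mitochondrial limit of 5%, where 10.7% of all genes were, and 1 without doublet removal (12.6%), and 3 were called with cells gated one by one (31.1%). Hey1 kept its direction under all alternatives run.

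Of the pathway genes, 27 of 49 were called between the podocyte classes, 13 higher and 14 lower in mature cells, or 55.1% against 47.5% of all genes. Their median log2 fold change was -0.09 and that of all genes -0.01. The receptor gene Notch1 had 122 ± 0.77 CPM in immature and 6.47 ± 3.43 CPM in mature podocyte-like cells, and of the 4 receptor genes 3 were lower. Ccnd1, a cyclin gene and a class marker here, had 755 ± 152 and 22.8 ± 5.45 CPM. Dtx1, which encodes a ubiquitin ligase of the pathway, had 39 UMIs in immature and 1 in mature cells. The number of pathway genes called was 15 at a minimum of 5000 UMIs, where 32.1% of all genes were called, 11 with cells gated one by one, and 3 both at the mitochondrial limit of 5% and without doublet removal. From the renal vesicle stage to immature podocyte-like cells 24 pathway genes were called, 11 higher and 13 lower, or 49.0% against 41.4% of all genes, with Dll1 falling from 144 ± 2.33 to 15.5 ± 1.93 CPM and Sox9 from 147 ± 35.0 to 5.53 ± 0.21 CPM.

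**Figure D4:**
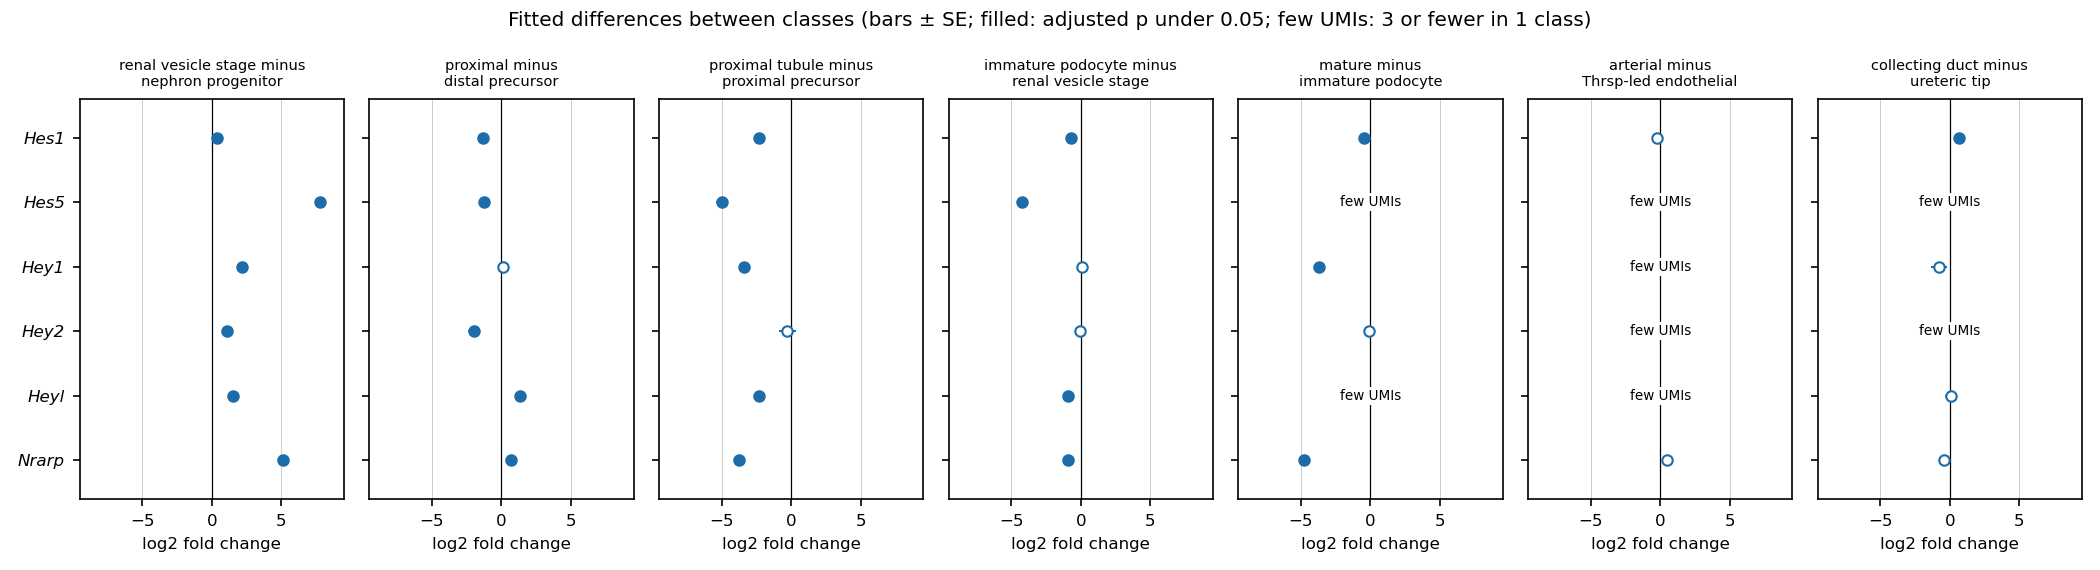
Fitted log2 fold change (horizontal axes) of each gene in 7 comparisons of classes. Bars are ± SE, filled points have an adjusted p under 0.05 by edgeR's quasi-likelihood test, and "few UMIs" marks genes with 3 or fewer UMIs in a class; all 6 points lie to the right of 0 in the first panel, and 28 of the 42 pairs of gene and comparison were called.

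In the ureteric lineage, which forms the collecting ducts, Hes1 was the only one of the 6 genes called between collecting duct-like and ureteric tip-like cells, where 33.3% of all genes were called and 18.5% were higher. It had 238 and 258 CPM in collecting duct-like against 177 and 155 CPM in tip-like cells, a log2 fold change of 0.65 ± 0.15 with an adjusted p of 7.3e-04 by edgeR's quasi-likelihood test. Nrarp had 9.0 and 13.2 CPM against 15.6 and 14.4 CPM and did not pass, at -0.39 (95% interval -1.03 to 0.25). With cells gated one by one no gene passed, and without doublet removal Nrarp passed too. Hes5 and Hey2 had at most 3 UMIs in either class. Ureteric tip-like cells numbered 61, and their median depth was 70219 UMIs in library 1 against 22231 in library 2.

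Of 149 collecting duct-like cells, 79 formed a sub-cluster led by Upk3a, Sprr2f and Sprr1a, of which Upk3a is a gene of the lining of the urinary tract. In that sub-cluster 87.3% of the cells had a UMI of the water channel gene Aqp2 and 34.2% one of Upk3a, and Hes1 stood at 262 and 253 CPM. The other 2 collecting duct-like sub-clusters had 192 and 217 CPM and 264 and 326 CPM of Hes1. All 3 lay above the 2 tip-like sub-clusters, which had 178 and 177 CPM and 177 and 134 CPM. An unnamed ureteric sub-cluster of 87 cells, 63.2% of them with a UMI of the tip gene Ret, had 320 and 238 CPM, in the range of the collecting duct-like cells, and was in neither class. Of the pathway genes 20 were called, 13 higher and 7 lower in collecting duct-like cells, or 40.8% against 33.3% of all genes, with a median log2 fold change of 0.32 against 0.07. Gata2, a transcription factor gene, had 106 ± 24.8 CPM against 7.87 ± 2.07 CPM in the tip, and Sox9 had 74.7 ± 20.3 against 665 ± 23.4 CPM.

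Notch signalling is known for its part in arterial identity, and arterial endothelial-like cells were set against the Thrsp-led endothelial cells. Those matched the list of the capillary plexus best, at a score of 0.24 against 0.09 for lymphatic endothelium. They had 5 of 6 plexus markers, with Esm1 in 2.25% of the cells, and their 10 leading genes held 0 of these markers and the lymphatic gene Lyve1. Hey1 and Hey2 were higher in arterial cells, 2 of 6 genes, where 8.17% of all genes were called and 4.76% were higher. Hey1 had 48.3 and 66.2 CPM in arterial against 1.3 and 1.3 CPM in Thrsp-led cells. That rests on 147 against 3 UMIs, a ratio of 40.7 (95% interval 13.7 to 200), with an adjusted p of 2.4e-09 by edgeR's quasi-likelihood test. Hey2 had 36 against 1 UMI, a ratio of 29.9 (5.04 to 1214), with an adjusted p of 1.6e-04 by the same edgeR test.

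Hes1 and Nrarp did not pass the test here. Hes1 had 255 and 290 CPM in arterial and 297 and 306 CPM in Thrsp-led cells, a log2 fold change of -0.23 ± 0.16 (95% interval -0.54 to 0.08). Nrarp had 43.8 and 44.8 CPM against 28.8 and 32.1 CPM, a difference of 0.48 ± 0.27 with an adjusted p of 0.37 by edgeR, although the libraries did not overlap. Against the best plexus match of the other settings it was 0.86 at a minimum of 5000 UMIs and 0.97 without doublet removal, with an adjusted p of 0.024 by edgeR in each, where 13.2% and 15.7% of all genes were called. Hes5 and Heyl had at most 2 UMIs in either class. With cells gated one by one, where the plexus class held 502 and 337 cells, Hes5 passed, with an adjusted p of 0.036 by edgeR where 16.8% of all genes were called, from 21 arterial UMIs in library 1 and 0 in library 2. Glomerular endothelial-like cells, marked by Ehd3 and Plat and numbering 50 and 27, had both Hey1 and Nrarp, at 61.3 and 95 CPM and 101 and 117 CPM. Of the 6 markers of their list 4 were detected in at least 10% of the cells and 4 stood above the other cells, with Sost in 2.6%. Their first leading genes were Dlk1, Fam46a and Rtl1, so the name is uncertain.

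Of the pathway genes 10 were called between arterial endothelial-like and Thrsp-led cells, 8 higher and 2 lower, or 20.4% against 8.17% of all genes. Their median log2 fold change was 0.25 and that of all genes 0.00, and all 4 ligand genes tested were called, 3 of them higher. Jag1 had 120 ± 36.1 CPM in arterial and 6.69 ± 0.014 CPM in Thrsp-led cells, a log2 fold change of 4.15 ± 0.30. Jag2 had 68.6 ± 3.43 against 4.68 ± 0.96 CPM, and Dll4 had 42.9 ± 2.77 against 11.7 ± 3.33 CPM. Without doublet removal 16 pathway genes were called, where 15.7% of all genes were. Another endothelial sub-cluster, without a name and led by haemoglobin genes, Chchd10 and Esm1, had 14.1 and 1.17 CPM of Hes5, of which 20 of 21 UMIs in library 1 were in 1 cell.

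Foxd1 is known from the progenitors of the stroma, and it is also active in podocytes. Cortical stroma-like cells had 128 and 107 CPM of Hes1, mesangial-like cells 84.2 and 77.3 CPM and Wnt4-led stroma cells 58.1 and 32.3 CPM. The first class was near the background of 118 and 106 CPM and the other 2 were under it. All 3 lay above erythroid-like cells, so a level under this background does not show that Hes1 is absent. The mesangial-like class rested on 3 detected markers. Of its 824 cells, 417 were in a sub-cluster led by haemoglobin genes and 407 in one led by Igfbp3 and Clca3a1, which scored 0.40 for the mesangial and 0.37 for the interstitial stroma list. At a minimum of 5000 UMIs, without doublet removal and with gated cells an interstitial stroma-like class appeared and the mesangial-like class fell to 218 and 154, 174 and 146, and 84 and 41 cells. Against the mean of the other classes, Nrarp was lower by edgeR's quasi-likelihood test in each of these 3 classes, where 16.7% (cortical), 12.9% (Wnt4-led) and 14.7% (mesangial) of all genes were lower. All 3 calls were lost at a minimum of 5000 UMIs, with a minimum of 15 cells per class and with cells gated one by one. The cortical call was also lost at a mitochondrial limit of 5%, where the other 2 classes were not formed. The minimum of 15 cells adds the smooth muscle-like cells, which had 0 UMIs of Nrarp, to the mean of the others. Hes1 was also called lower in Wnt4-led (adjusted p 1.9e-08 by edgeR) and mesangial-like cells (6.5e-04), and Hey1 in mesangial-like cells (0.012). With gated cells the mesangial calls of Hes1 and Hey1 were lost, and that of Hey1 also at a minimum of 5000 UMIs and with a minimum of 15 cells per class. Hey2 was called higher in cortical stroma-like cells, against 31.7% of all genes, at 2.6 and 4.4 CPM beside a background of 3.98 and 2.77 CPM. That call was lost at a mitochondrial limit of 5%, with an adjusted p of 0.40 by edgeR. In mesangial-like cells, where 27.3% of all genes were higher, Hey2 and Heyl were called higher by the fit but lay lower in CPM, at 2.75 and 8.32 CPM against a mean of 2.98 and 9.86 CPM in the others. With gated cells both of these calls were lost, with adjusted p of 0.14 for Hey2 and 0.31 for Heyl by edgeR. Nrarp stayed at 1.4 CPM or under in all 6 library values, under the background of free RNA. Heyl lay between 4.3 and 8.9 CPM in these classes, also under the background.

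Smooth muscle-like cells, marked by Acta2 and Myh11, numbered 23 and 17, too few for the planned comparison with the stroma classes. They had 3 and 6 UMIs of Hes1, or 14 and 28.6 CPM, and 0 UMIs of Hes5, Hey1, Hey2, Heyl and Nrarp, where a limit of 3 counts stands at 14 CPM in library 1 and 14.3 CPM in library 2. With a minimum of 15 cells per class, a setting added after the data were seen, Hes1 was lower than in stroma by edgeR (adjusted p 0.032), where 4.48% of all genes were lower. Cells gated one by one gave another smooth muscle-like class of 84 and 78 cells, in which Hey2 and Heyl were higher than in stroma, at log2 fold changes of 2.72 and 2.64 with adjusted p of 0.0013 and 3.8e-06 by edgeR, where 7.5% of all genes were higher. At a mitochondrial limit of 5% the class held 181 and 82 cells, and edgeR called 0 of 6, with 0 at an unadjusted p under 0.05 and 9.33% of all genes called; DESeq2 was not run on these cells. The first round of clustering had put these cells in a mural-like cluster of 32 and 27 cells with 3 and 18 Nrarp UMIs and 4 and 10 Heyl UMIs. In the second round 4 cells of library 1 and 7 of library 2 from that cluster joined an unnamed sub-cluster led by mitotic genes, with the renin gene Ren1 among its leading genes. Those cells held all of the Nrarp and Heyl UMIs of the mural-like cluster. Nrarp in that cluster thus came from few cells, mostly of library 2.

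A cluster of 125 and 74 cells, led by Tagln, Hbegf and Ms4a2, matched best a list made of its own leading genes, at a score of 2.64. Among the cell type lists it matched the mural list best, at 0.75, where the mural-like cluster scored 4.45. The Hbegf-led cluster was left without a cell type name. It had 51.5 and 52.0 CPM of Hey1, 10.0 and 8.5 CPM of Hey2 and 54.2 and 55.9 CPM of Heyl. Its Nrarp was only 5.4 and 6.2 CPM and its Hes5 0.8 and 0 CPM. Heyl there was in the range of the renal vesicle stage, and both libraries gave close values. The cluster did not enter the fit and was not tested.

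How the genes were found together in single cells was described after each cell was thinned at random to 4600 UMIs. At the renal vesicle stage 56 of 256 cells in library 1 and 51 of 259 in library 2 had UMIs of 3 or more of the 6 genes, or 21.9% (exact binomial 95% interval 17 to 27.4%) and 19.7% (15 to 25.1%). This left out 2 and 1 shallower cells. Immature podocyte-like cells had 6.04% and 7.04%, glomerular endothelial-like cells 4.88% and 10.0% (2 of 41 and 2 of 20 cells), proximal precursor-like cells with 5.83% and 6.49% and distal precursor-like cells with 4.21% and 5.26%. In nephron progenitor-like cells the share was 0.46% and 0.64%. Of erythroid-like cells, a type that should lack these genes, 97.0% had none of the 6 in either library, after 248 and 189 shallower cells were left out.

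At that depth the class with the largest share of cells with a UMI was the class with the highest level for Hes5, Hey2, Heyl and Nrarp but not for Hes1 and Hey1. Hes1 was found in 64.9% of distal precursor-like and 58.4% of Thrsp-led endothelial cells. Hes5 was found in 21.5 ± 2.84% of renal vesicle stage-like and 9.30 ± 0.50% of distal precursor-like cells, and in 0.30 ± 0.42% of erythroid-like cells. Unthinned, these shares were 46.3 ± 2.98%, 25.5 ± 3.66% and 0.24 ± 0.050%, at median depths of 18170 and 18746 UMIs at the renal vesicle stage and 4370.5 and 4461 UMIs in erythroid-like cells. Hey1 was found in 37.7 ± 2.51% of renal vesicle stage-like, 36.4 ± 4.59% of immature podocyte-like and 0.22 ± 0.31% of erythroid-like cells. Nrarp was found in 39.6 ± 7.67% of glomerular endothelial-like and 28.5 ± 0.039% of renal vesicle stage-like cells against 0.73 ± 0.20% of erythroid-like cells.

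**Figure D5:**
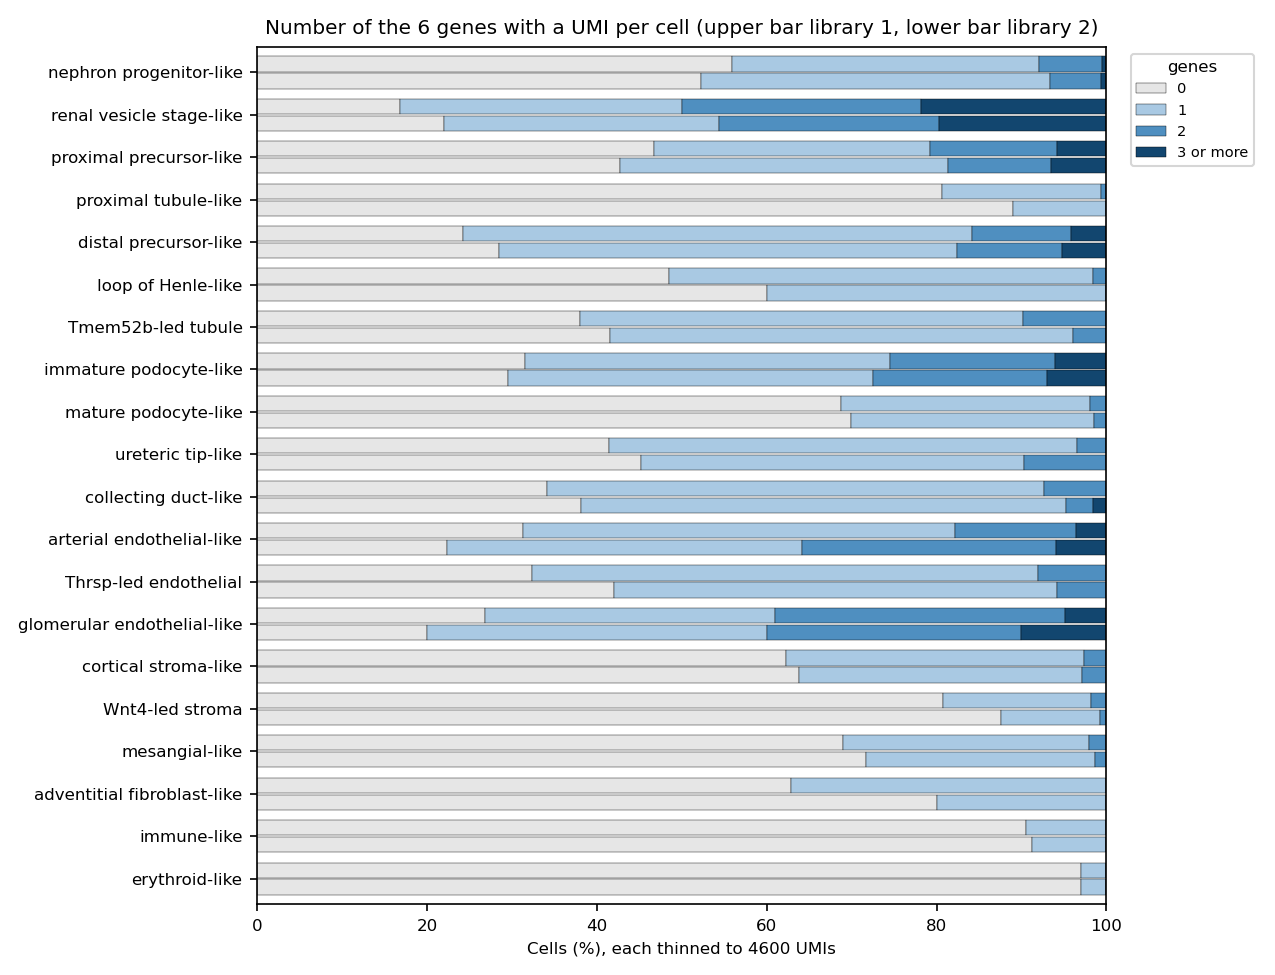
Share of cells in percent (horizontal axis) with UMIs of 0, 1, 2 or 3 or more of the 6 genes in each class (vertical axis), after thinning to 4600 UMIs. The upper bar of a pair is library 1 and the lower bar library 2; the darkest segment is longest at the renal vesicle stage, at 21.9% and 19.7%.

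Likeness of pattern was measured as the lower of the 2 libraries' Pearson correlations of log2(CPM + 1) across the 20 classes, among genes whose class levels averaged 5 CPM or more. The classes come from the same 2 libraries, and these values are descriptions. Hes5 was most like Lhx1os (0.76), Lhx1 (0.76) and Hsd17b14 (0.75). Lhx1 marks the renal vesicle stage and served to name it, and Lhx1os is annotated beside Lhx1, so reads of the 2 may not be told apart. Nrarp was most like Tspan18 (0.79), the ligand gene Jag1 (0.79) and Adamts16 (0.78). Hes1 was most like Trove2 (0.88) and Mpzl1 (0.85), and Heyl was most like Ncs1 (0.81), Rhou (0.79) and Epha7 (0.79).

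Hey2 was most like Hey1 (0.76), followed by Nebl (0.68) and Nes (0.67). Hey1 was most like Dennd5b (0.74), Tsc22d1 (0.73) and Ccnjl (0.72) among genes past 5 CPM, which Hey2 was not. Among the 6 genes themselves the values ran from 0.04 between Hey2 and Heyl to 0.76 between Hey1 and Hey2. Hes1 was least like Heyl (0.13) and most like Nrarp (0.57), and Hes5 was most like Heyl (0.59).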

How the data were processed

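The deposited matrices hold whole-number counts of UMIs per gene and barcode, unfiltered, from 10x Chromium 3' libraries per the labels' protocols. Cell Ranger 6.0.1 and mm10 are named in the submitters' processing notes, while the file headers name Cell Ranger 4; the annotation is not given in the sources used here. RefSeq coordinates are of GRCm38. The libraries held 163405630 and 135436576 UMIs, and 6910 and 5917 barcodes had at least 2000. Barcodes over 10% mitochondrial UMIs were removed (690 and 768), then Scrublet's highest scores (310 and 212).

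Both libraries were clustered with scanpy 1.11.5 (2000 variable genes, 30 components, 15 neighbours, Leiden resolution 1, then 0.5 or, for nephron tubule cells, 1) without the 6 genes, the pathway genes other than Ccnd1 and Efnb2, 6 sex-linked genes, EYFP and mitochondrial genes. A cluster took the name of the marker list with the highest averaged z-score, if 3 or more of its markers were found in 10% of the cells. Counts summed per library and class (20 classes of at least 20 cells per library) were tested in edgeR 4.0.16 (TMM, filterByExpr, quasi-likelihood test, library as block, Benjamini-Hochberg over 14635 genes, threshold 0.05, 19 residual degrees of freedom). The libraries are shared by all classes, which is the source of the pairing. On simulated data for the renal vesicle stage against nephron progenitors the test recovered 56 of 100 genes changed by 1 and 94 of 100 changed by 2 on the log2 scale, with 7 false calls among 14525 genes. The simulated counts had no library effect and a dispersion above the common value of 0.00413 fitted to the data. These figures are therefore not rates for the data themselves.

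The 6 genes were named in every comparison; of the pathway list, up to 3 called genes with the largest fitted change whose sign the libraries shared; and the 3 most alike genes by pattern, of which 1 for Hes1 is not reported here. Genes and lists were chosen with earlier results of these data known. After the clusters were seen, tubule cells were reclustered together, a minimum score of 0.15 was set for the second round, and the Hbegf-led cluster was left without a cell type name. Alternatives were DESeq2 1.42.0, other filters, resolution 1.5, a per-cell marker gate, leaving out each library and, added later, 15 cells per class and leaving out 7 clusters led by markers of another class.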

Additional observations from a re-analysis of the deposited data

How the results depend on the processing

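Of the 28 called differences, all 28 kept their direction with DESeq2's size factors, DESeq2's test, no filter on low counts, resolution 1.5, no library block, a minimum of 15 cells per class (added after the data were seen) and in each library alone, where there is no test and 14 (library 2) and 12 (library 1) of the 28 lay within 1 SE of the fitted value. At 5000 UMIs per cell 26 of 28 kept it, at a mitochondrial limit of 5% 21 of 22, without doublet removal and with the per-cell gate 27 each, without cells over 50000 UMIs 27 of 27, and without the 7 clusters led by markers of another class (added after the data were seen) 26 of 26. Fits with the library block and without it differed in 2 calls lost without it: the Hes1 rise at the renal vesicle stage (6 genes called with the block, 5 without) and Hes1 in nephron progenitors against the other classes (5 genes, then 4). In the latter contrast 8382 of all 14635 genes were called with the block.

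Reversed were Hes5 between precursors (0.28 at 5000 UMIs), Hey1 between immature podocytes and the renal vesicle stage (-0.41 at 5000 UMIs, -1.07 at 5%, -0.51 with doublets), Hes1 (0.041, gate), Hes5 (0.35 at 5000 UMIs, 0.13 with doublets) and Hey2 (1.64 at 5000 UMIs, 1.16 without the 7 clusters) between podocyte classes, and Hes1 in proximal tubule (0.014 at 5%). Between podocyte classes 1, 1 and 3 of the 6 were called at 5%, with doublets and by the gate, and 15, 3, 3 and 11 pathway genes at 5000 UMIs, 5%, with doublets and by the gate. In collecting duct 2 were called with doublets and 0 by the gate in edgeR (1 at an unadjusted p under 0.05). DESeq2 was not run on the gated cells, and the shares of all genes called in these 2 settings are not given here. Pathway calls were 16 in arteries with doublets, 13 between precursors at 5000 UMIs, and 10 and 12 in proximal tubule at 5% and by the gate. Class calls were 25 higher and 8 lower of 78 pairs at 5%, 8 lower of 114 by the gate and 7 lower of 126 with 15 cells per class, against 46 and 24 of 120. The causes were not tested.

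In the order 5000 UMIs, 5%, with doublets, resolution 1.5 and gate, Hes1 in each setting's own best plexus match was 251.7, 256.1, 278.1, 239.8 and 257.8 CPM. Hes5 at the renal vesicle stage was 67.7, 65.0, 77.9, 91.5 and 76.4 CPM, 93.5 without cells over 50000 UMIs and 97.2 without the 7 clusters. Hey2 in arteries was 15.2, 15.6, 29.4, 21.9 and 16.6 CPM, and 15.2 without cells over 50000 UMIs. Hey1 in immature podocytes was 87.2, 59.9, 65.2 and 87.1 CPM at 5000 UMIs, 5%, with doublets and by the gate and 88.3 without the 7 clusters, and Nrarp in glomerular endothelium was 76.4 with doublets and 53.6 by the gate. Single libraries gave 297 to 306 (Hes1), 78.9 to 80.2 (Hes5), 114 to 121 (Hey1), 12.8 to 13.6 (Hey2), 40.6 to 56.4 (Heyl) and 101 to 117 CPM (Nrarp). Thinned to 10000 UMIs, the shares of cells in each gene's highest class were 90.7% (Hes1), 35.9% (Hes5), 61.0% (Hey1), 14.4% (Hey2), 32.7% (Heyl) and 64.2% (Nrarp), and 46.3% of renal vesicle stage cells had 3 or more genes. The first pattern neighbour's likeness with log2(CPM + 10) was 0.86, 0.85, 0.79, 0.85 and 0.80 for Hes1, Hes5, Hey1, Heyl and Nrarp, and 0.79 for Heyl at 20 CPM; the first neighbour became Fgf8 for Hes5, Oxtr for Hey1, Notch1 for Nrarp and, at 20 CPM, Rhou for Heyl. Hey2 rests on 334 and 257 UMIs over all cells, and the smooth muscle-like class on 23 and 17 cells. The arterial comparison without the 7 clusters, the precursor and collecting duct comparisons at 5%, and the collecting duct comparison without cells over 50000 UMIs, could not be fitted.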
